A study of Mus musculus with 6 samples.

Results

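The chemokines and their receptors were followed through the first days of depilation-induced hair regeneration in mouse skin. The 55 genes were the rows of the deposited gene tables whose symbols begin with Ccl, Cxcl, Xcl, Cx3cl, Ccr, Cxcr, Xcr, Cx3cr or Ackr and a digit, out of 32285 genes in all. They comprised 32 ligands and 23 receptors. Of 67 rows with such names, 11 rows of 5 symbols that occur more than once were not used, and neither was 1 further symbol. The data were 6 droplet single-cell RNA-seq libraries of dorsal skin from wildtype adult FVB males (p55-57), 1 library for each time point after waxing, namely 0 h, 4 h and 16 h on the first day and 2 d, 4 d and 6 d later on. At every time point the skin of 2 mice was shaved and waxed, and the cells of each mouse were isolated separately and then mixed at equal numbers, so that no value here belongs to 1 mouse. Genotype, sex, strain and the waxing were common to all libraries, and no other treatment was given. With 1 library per time point there was no test between any pair of time points, and the 95% exact Poisson interval given where levels are set against each other covers counting error only.

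Chemokines are small secreted proteins that guide the movement of leukocytes by binding G protein-coupled receptors on their surface. Some have a single preferred receptor and others share receptors, while the atypical receptors, the Ackr genes, bind chemokines without the usual G protein signal and take them up. In skin, keratinocytes, Langerhans cells and resident lymphocytes all make chemokines, and T cells and Langerhans cells use them to enter, stay in or leave the epidermis.

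After filtering and removal of likely doublets, 49974 cells were analysed, with median depths per library of 6009 to 10521.5 UMIs (molecules) per cell. The members of the family were kept out of the genes used to cluster the cells. The clusters fell into 13 cell types by their markers: basal and suprabasal interfollicular epidermis (IFE.B, 16586 cells, and IFE.SB, 7641), basal and suprabasal upper hair follicle (uHF.B, 5998, and uHF.SB, 4799), outer bulge (OB, 6443), the companion layer called IRS3 (2074), inner root sheath (IRS) and matrix (285), sebaceous gland (SG, 1865), melanocytes (577), dermal papilla (DP) and fibroblasts (198), T cells (2418), Langerhans cells (795) and a small group of lymphocytes with Icos, Il7r and Ltb (295, here Icos lymphocytes). The leading genes of the IRS3 cluster included Fgf18, Gpc6 and Sncg. In a finer clustering, at resolution 0.4, these were leading genes of a cluster of 1044 cells named inner bulge. Another 1031 cells were named IRS3 there. IRS3 as used here may therefore mix both types, and the mix at each time was not measured. OB was split there too, into a cluster named OB and one named IRS and matrix, whose cells at each time are given below. Levels are counts (UMIs) summed over the cells of a type in a library and scaled to a total of 1000000 (CPM), and a sum was used where it held at least 20 cells. By that rule SG and Icos lymphocytes had no 0 h value, and DP and fibroblasts as well as IRS and matrix had values at 4 d and 6 d alone. Between 7 and 47 cell barcodes were shared by any pair of libraries. Levels between cell types are descriptions without a test, since the types were made from these cells.

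The family gave 317924 UMIs, of which ligands held 87.9%. Cxcl14 alone held 58.4%, and the 5 most abundant members, Cxcl14, Cxcl16, Cxcl1, Ccl20 and Ackr3, held 85.3%. At least 20 UMIs were found for 40 members (23 ligands and 17 receptors), 10 had 1 to 19 UMIs, and 5, Ccl12, Ccl24, Ccl26, Ccl27b and Ccr1l1, had none. The 18 members that reached 50 CPM in at least 2 libraries within the same cell type are given with values. The leading cell type, the one with the highest mean log2(CPM + 1) over libraries, was an immune one for 11 of the 17 receptors and for 9 of the 23 ligands. Icos lymphocytes led for 9 receptors, while ligands were led most often by uHF.B (5), Icos lymphocytes (4) and Langerhans cells (4). A lead does not mean that most UMIs lay in that type. Icos lymphocytes held 145 of the 168 Ccr6 UMIs but 8 of the 803 Ccr4 UMIs. Langerhans cells led Ackr1 with 5 of 83 UMIs and Cxcl3 with 3 of 74. DP and fibroblasts led Ccl17 with 2 of 108, and melanocytes led Ccl28 with 2 of 115.

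**Figure D1:**
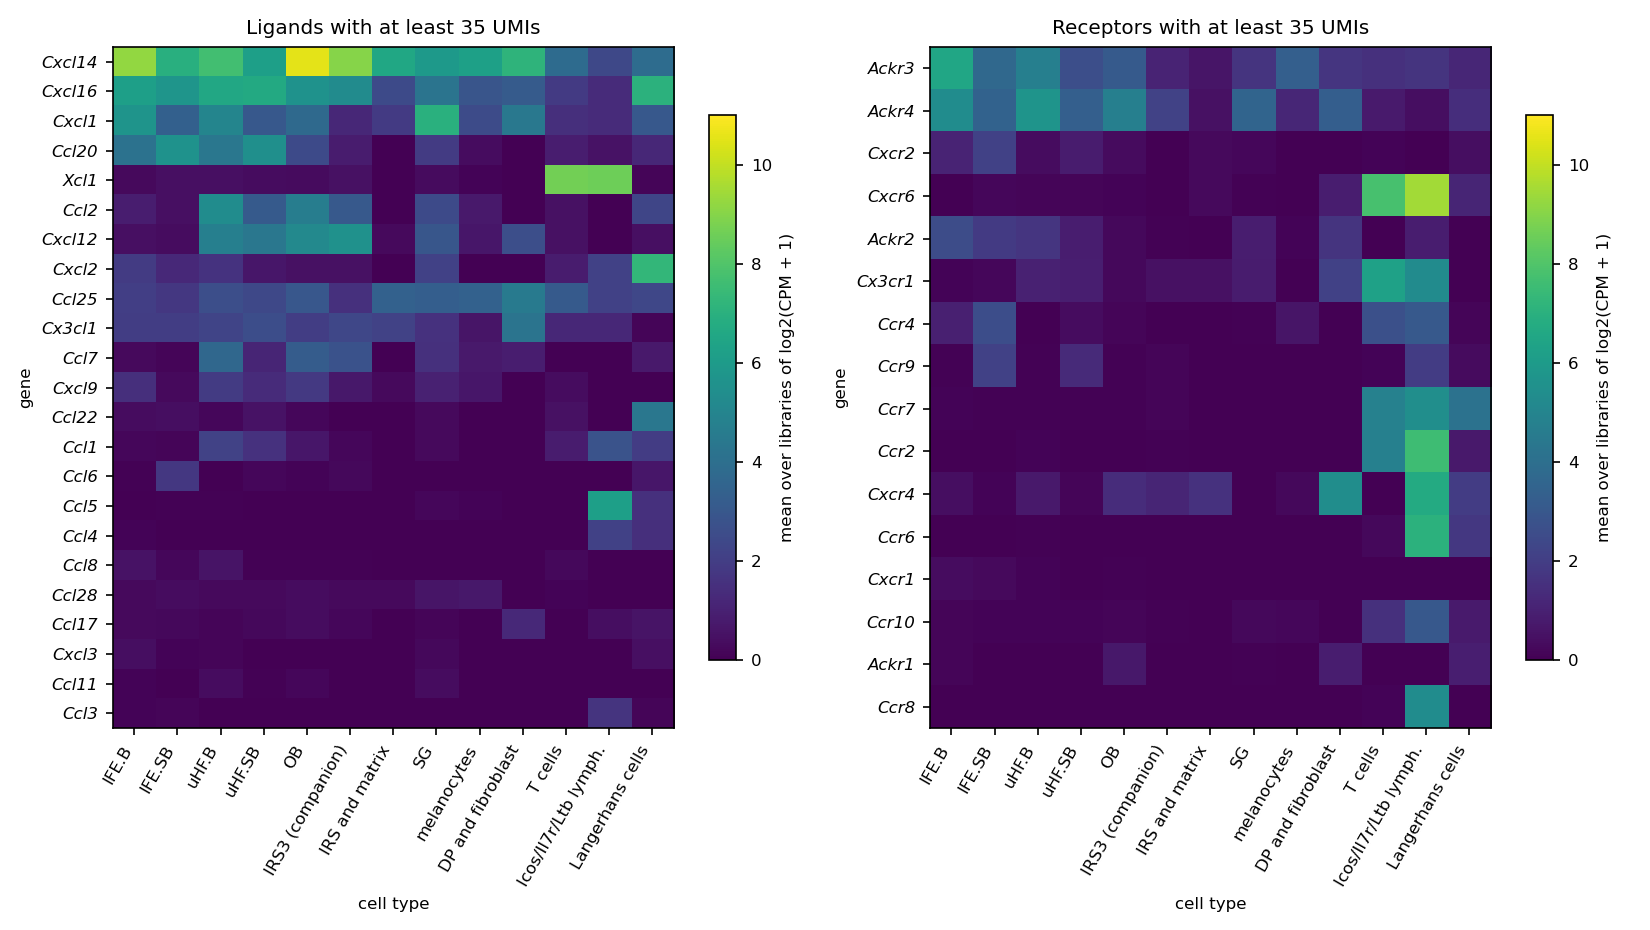
Mean over libraries of log2(CPM + 1) for the 23 ligands and 16 receptors with at least 35 UMIs (rows, most abundant first) in 13 cell types (columns). Ligands are spread over epithelial and immune columns, with Cxcl14 brightest in OB, whereas 8 receptor rows are brightest in the Icos lymphocytes and Ackr3 and Ackr4 in basal keratinocytes.

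The ligands Cxcl1, Cxcl2 and Cxcl3 are neutrophil attractants that share the receptor Cxcr2, and Ccl20 attracts cells with Ccr6. All 4 are textbook targets of NF-kB, and their promoters are printed because they are 4 of the 6 members whose promoters held the κB letters. Searched on both strands for GGG, any 2 bases and TTTCC, the 250 bases before the RefSeq start (GRCm38.p6) held these letters in 6 of the 41 members with a promoter in the table and in 1.65% of 27025 genes. The other 2 members were Ccl9 and Ccr3, of 4 and 5 UMIs. AP-1 letters, TGANTCA, were found in 4 of 41 members and in 7.82% of genes. A match describes letters and is not a binding site. The promoters, all on the + strand, are of Cxcl1 (chr5:90890995-90891244), Cxcl2 (chr5:90903649-90903898), Cxcl3 (chr5:90785851-90786100) and Ccl20 (chr1:83116516-83116765), with the κB letters of either strand in capitals.
Cxcl1: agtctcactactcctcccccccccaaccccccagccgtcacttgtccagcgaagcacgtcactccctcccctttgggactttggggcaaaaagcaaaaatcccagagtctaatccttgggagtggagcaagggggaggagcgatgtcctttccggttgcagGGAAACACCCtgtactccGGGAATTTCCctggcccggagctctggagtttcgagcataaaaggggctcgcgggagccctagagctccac
Cxcl2: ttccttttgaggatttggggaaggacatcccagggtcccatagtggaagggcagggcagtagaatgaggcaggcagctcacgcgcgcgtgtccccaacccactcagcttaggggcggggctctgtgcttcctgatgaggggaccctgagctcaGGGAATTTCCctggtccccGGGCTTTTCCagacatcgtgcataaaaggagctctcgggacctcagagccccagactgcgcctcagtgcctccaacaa
Cxcl3: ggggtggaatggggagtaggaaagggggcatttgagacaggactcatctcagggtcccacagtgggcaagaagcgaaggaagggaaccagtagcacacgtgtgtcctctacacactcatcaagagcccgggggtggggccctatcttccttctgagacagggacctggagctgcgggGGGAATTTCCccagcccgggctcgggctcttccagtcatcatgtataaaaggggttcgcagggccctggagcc
Ccl20: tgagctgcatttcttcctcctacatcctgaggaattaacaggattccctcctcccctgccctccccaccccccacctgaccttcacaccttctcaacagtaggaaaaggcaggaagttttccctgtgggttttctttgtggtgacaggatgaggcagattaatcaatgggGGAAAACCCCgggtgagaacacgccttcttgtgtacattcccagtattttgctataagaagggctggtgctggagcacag
The letters occurred at 2 places in Cxcl1 and Cxcl2 and at 1 in the others, and began 71 to 97 bases before the start.

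Cxcl14, a keratinocyte chemokine that attracts several kinds of leukocyte, was the most abundant member in OB at all 6 time points. Its OB level was 3748, 1835, 1829, 779.6, 664 and 1660.0 CPM from 0 h to 6 d, above every other cell type in 6 of 6 libraries. The level was lowest at 4 d, when its interval of 653 to 675 CPM lay far below the 3667 to 3829 CPM of 0 h, and higher again at 6 d (1634 to 1686 CPM). After every cell was thinned to 2000 UMIs, 89.3% of OB cells held a Cxcl14 UMI at 0 h and 60.7% at 4 d. Without thinning the shares were 94.8% and 84.8%. In IRS3, which may include inner bulge cells, the level had no late return and was 1419, 1115, 541, 443, 223 and 204 CPM. IFE.B held 1111, 894, 384, 343, 572 and 603 CPM, lowest at 2 d. uHF.B was at 382, 432, 107, 113, 178 and 201 CPM, and the suprabasal types lay at 83.3 to 207 CPM (IFE.SB) and 46.2 to 120.1 CPM (uHF.SB). T cells, which should lack Cxcl14, read 7.61 to 49.7 CPM, with a UMI in 1.69 to 6.90% of thinned cells, and this is taken as the background of free RNA.

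A finer clustering split the OB cells into a cluster led by Krt24 and Grem1 and one led by Col14a1 and Hsd11b2. By the marker lists the Krt24 cluster was named OB there. The Col14a1 cluster, of 3650 cells, was named IRS and matrix. OB as used here therefore holds cells that the finer naming does not call outer bulge. Cxcl14 was at 4253, 1864, 1793, 1329.9, 1546 and 2237 CPM in the first and at 919.6, 1636, 1962, 481, 570.2 and 1307 CPM in the second. The Krt24 cluster held 334, 584, 520, 196, 453 and 703 cells and the Col14a1 cluster 50, 59, 109, 216, 2336 and 879 cells from 0 h to 6 d, so that the OB sum at 4 d came mostly from the second. Within the Krt24 cluster the lowest level was at 2 d, and the 4 d level lay above it. Cxcl12 in the Krt24 cluster was at 39.1, 56.4, 124, 45.7, 22.1 and 18.9 CPM, highest at 16 h. Ackr4 was at 88.9, 18.9, 37.9, 62.5, 45.1 and 50.4 CPM in the Krt24 cluster and at 21.1, 7.80, 15.5, 10.0, 3.86 and 12.4 CPM in the Col14a1 cluster, higher in the first at each of the 6 times.

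Cxcl16, a membrane-bound ligand that binds Cxcr6, was found in most epithelial types and was highest in Langerhans cells in 4 of 6 libraries. In Langerhans cells it was at 171, 365, 102, 169, 17.6 and 288 CPM from 0 h to 6 d. In 4 follicular types the level was highest at 4 h. uHF.B read 98.0 CPM at 0 h and 247 at 4 h, uHF.SB 74.4 and 187, OB 66.3 and 184, and IRS3 47.9 and 111 CPM. By contrast, both interfollicular types were lower at 4 h than at 0 h, with 103 and 65.6 CPM in IFE.B and 71.0 and 38.7 CPM in IFE.SB. All 6 pairs of intervals were apart, which was the rule by which Cxcl16 was picked from 40 members for a closer look, and is no separate support. At 16 h the follicular types were at 57.6 to 124 CPM. OB had its lowest level, 9.61 CPM, at 4 d, when uHF.SB was at 102 CPM. At 4 d the Cxcl16 level was 34.3 CPM in the OB cluster led by Krt24 and 6.99 CPM in the one led by Col14a1, which held 2336 of the 2790 OB cells. Cxcl16 in T cells was at 0 to 5.70 CPM.

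**Figure D2:**
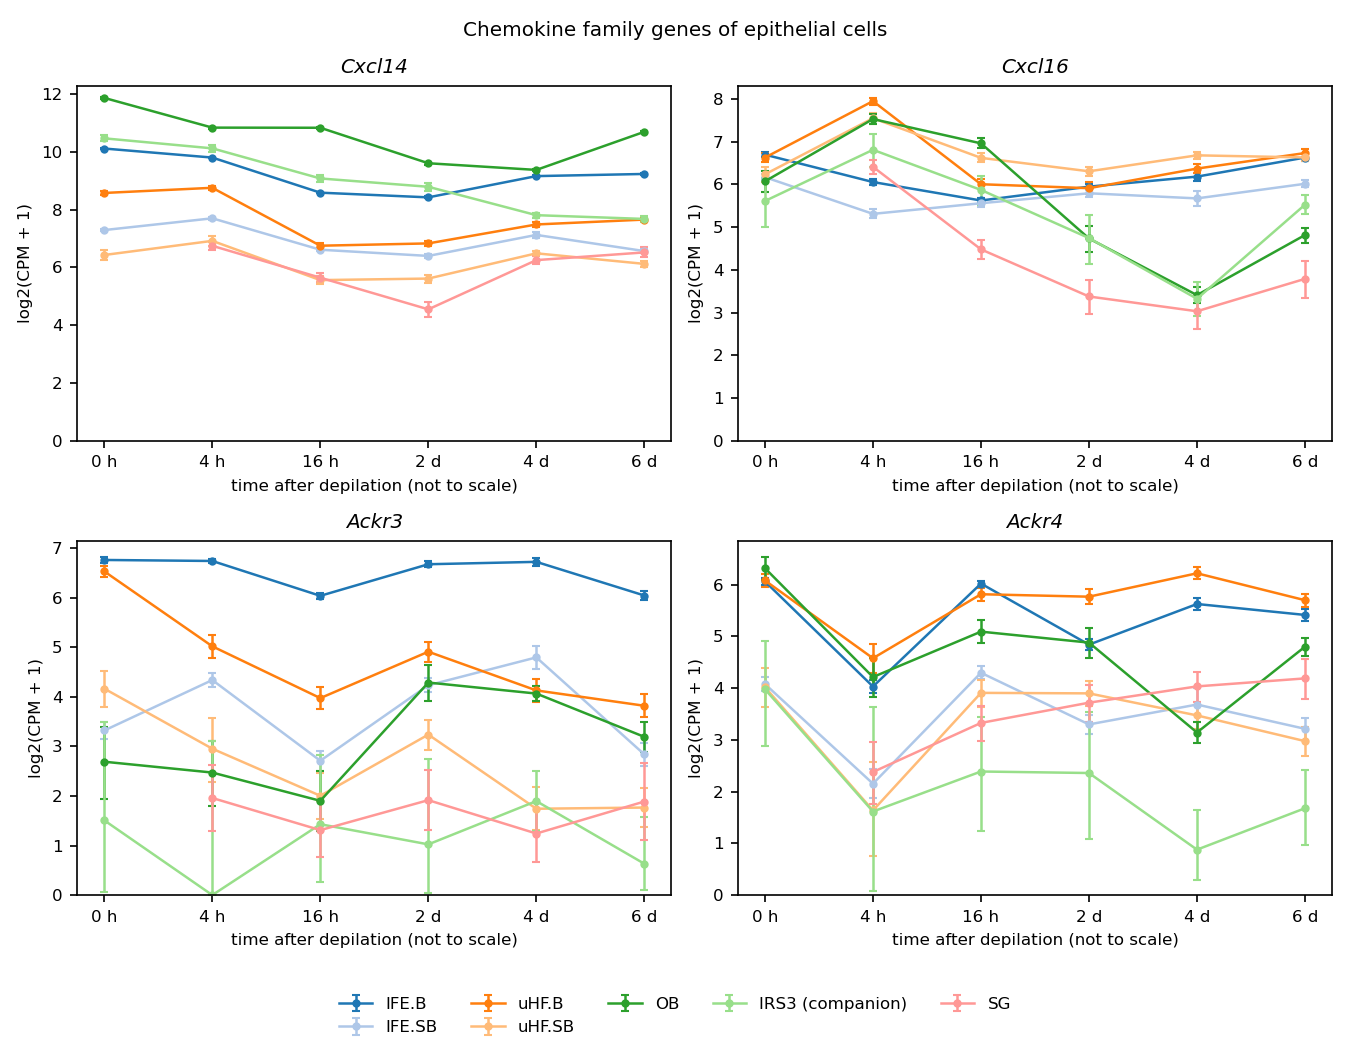
log2(CPM + 1) of Cxcl14, Cxcl16, Ackr3 and Ackr4 at the 6 time points (horizontal axis, not to scale) in 7 epithelial cell types, 1 library per point, with bars for the 95% Poisson interval. OB is the top line for Cxcl14 throughout, the follicular lines of Cxcl16 peak at 4 h where those of IFE.B and IFE.SB dip, IFE.B is the top line for Ackr3, and Ackr4 dips at 4 h in uHF.B and IFE.B.

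Cxcl1 was highest in SG in 4 of the 5 libraries with an SG value, at 332, 107, 272, 49.1 and 66.1 CPM from 4 h to 6 d. IFE.B had another course, at 172, 32.2, 29.8, 177, 8.88 and 58.7 CPM from 0 h to 6 d, with high values at 0 h and 2 d. uHF.B read 54.2, 103, 27.7, 38.5, 7.80 and 16.9 CPM and OB 13.6, 45.1, 42.9, 16.0, 2.40 and 2.75 CPM, both highest at 4 h. In these 4 types the level at 4 d was the lowest of the series, in OB within counting error of that at 6 d. Cxcl1 was unevenly spread among cells, and 493 cells with at least 10 UMIs held 45.9% of its 20433 UMIs. In SG, 38 of 237 such cells held 1012 UMIs at 4 h, when all ligands of SG gave 2127. At 2 d, 32 of 388 SG cells held 1095, when all ligands of SG gave 1635. In IFE.B at 2 d, 129 of 3063 cells held 2425. The SG level without such cells was not computed, so the SG lead may rest on them.

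Cxcl2 was highest in Langerhans cells in 6 of 6 libraries, at 136, 173, 383, 284, 20.1 and 272 CPM. Its level in IFE.B was 9.33, 0.323, 0.727, 14.4, 0.0793 and 6.51 CPM, highest at 2 d and lowest at 4 d as was Cxcl1 there. A few cells dominated here too, since 54 cells with at least 10 UMIs held 47.7% of the 2106 in all cell types. Among the 118 Langerhans cells of the 16 h library, 8 such cells held 172 of the 215 Cxcl2 UMIs. With such cells left out, Langerhans cells read 82.5 CPM in this library and 108 CPM in the 2 d library. The place of 16 h as the highest time therefore rests on them. Cxcl3 gave 74 UMIs in all. Both genes lie near Cxcl1 on chromosome 5, in a group of 5 ligands that spans positions 90759360 to 90905938 of mm10.

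Ccl20 was made mostly by suprabasal keratinocytes, and by few of them. IFE.SB was at 104, 17.0, 66.3, 84.8, 8.55 and 128 CPM and uHF.SB at 21.6, 15.6, 112, 38.3, 21.1 and 226 CPM. IFE.B had 94.0 CPM at 2 d and 2.58 to 25.5 CPM at the other times. Of 18661 UMIs, 80.5% were in 423 cells with at least 10, and 107 cells held 50% of the total, 1 of them with 382 UMIs. In uHF.SB at 6 d, 4.83% of thinned cells held a Ccl20 UMI (7.58% without thinning), against 0.429% of T cells without thinning. IFE.SB consisted of 2 clusters, and the one led by Lce1 genes and Lor, genes of the cornified envelope, was at 199, 19.2, 58.1, 94.3, 6.01 and 277 CPM. The other, led by Mt4 and Krt1, was at 6.83, 15.5, 70.4, 79.9, 10.2 and 10.0 CPM. The levels of the 2 clusters were far apart at 0 h and 6 d and close at 4 h, 16 h and 2 d.

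Ccl2 and Ccl7, neighbouring genes on chromosome 11 whose products bind Ccr2 and attract monocytes, were led by uHF.B. Ccl2 in uHF.B was at 79.7, 9.66, 23.8, 30.3, 74.4 and 86.5 CPM, lowest at 4 h and highest at 0 h, 4 d and 6 d. In OB it was at 16.8, 25.7, 50.5, 35.5, 7.26 and 34.8 CPM, above uHF.B at 4 h, 16 h and 2 d. Ccl7 read 29.7, 2.42, 9.36, 12.3, 16.5 and 17.2 CPM in uHF.B and 21.4, 5.20, 18.3, 0.617, 2.83 and 38.4 CPM in OB. Of the uHF.B cells, 763 held a Ccl2 UMI, 294 a Ccl7 UMI and 128 both, which is 16.8% of the Ccl2 cells and 43.5% of the Ccl7 cells. Ccl2 overlaps the gene model Gm17268 on the opposite strand.

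**Figure D3:**
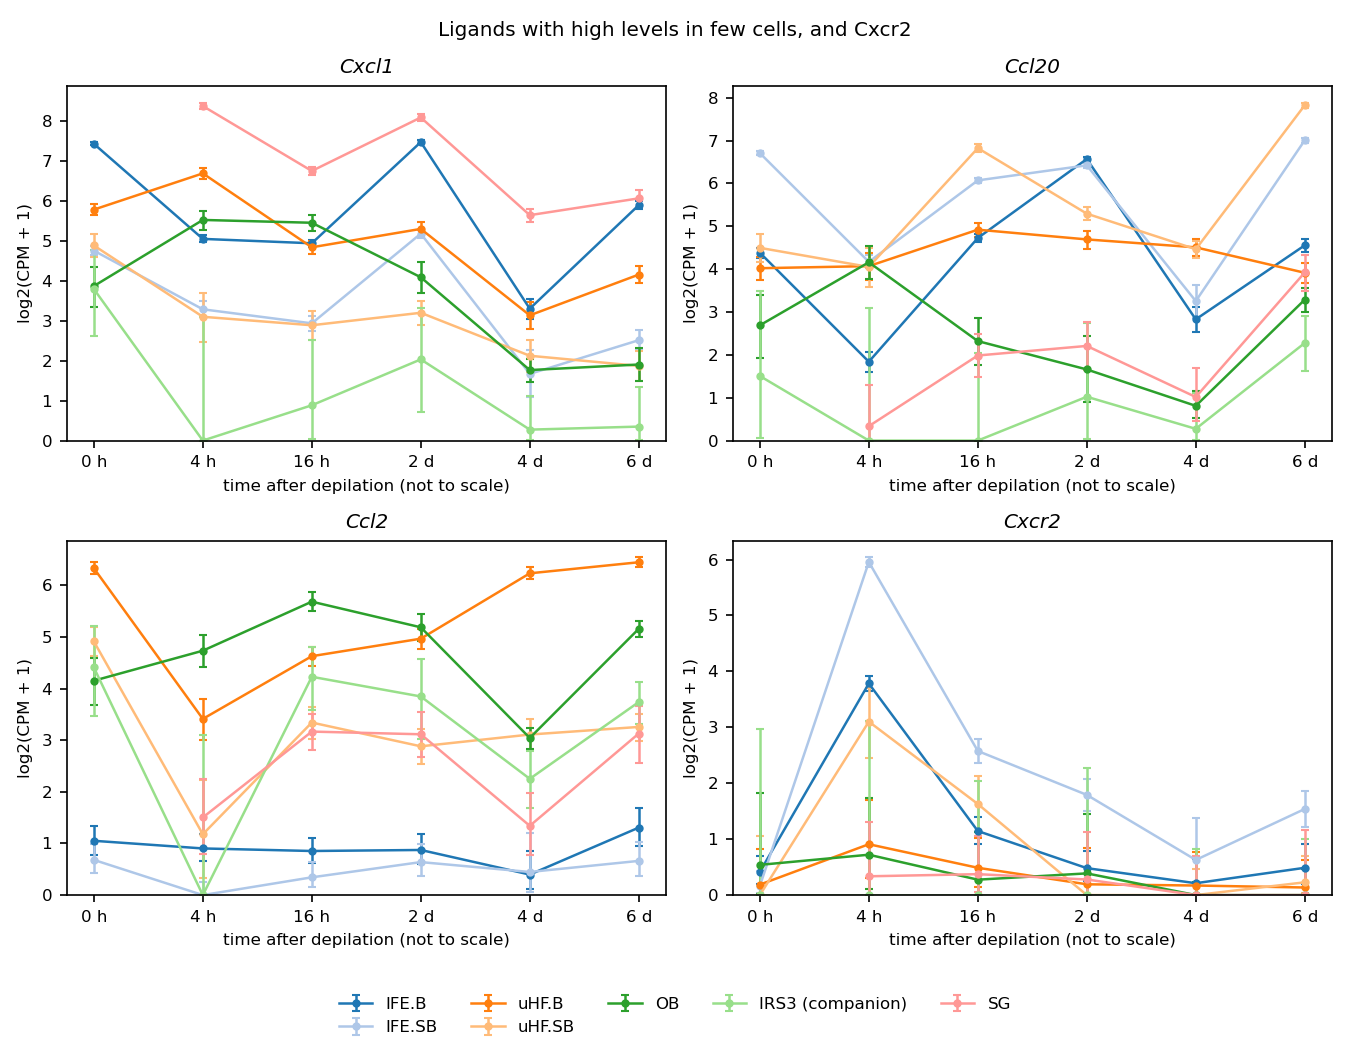
log2(CPM + 1) of Cxcl1, Ccl20, Ccl2 and Cxcr2 at the 6 time points (not to scale) in 7 epithelial cell types, 1 library per point, with 95% Poisson intervals as bars. Cxcl1 is low at 4 d in IFE.B, uHF.B and OB, Ccl2 in uHF.B has a trough at 4 h, and Cxcr2 stands out at 4 h in IFE.SB, IFE.B and uHF.SB.

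Cxcl12, the ligand of Cxcr4 and of the atypical receptor Ackr3, was led by IRS3 and OB over the libraries. OB was at 48.2, 51.6, 117, 39.2, 9.05 and 17.9 CPM and IRS3 at 44.2, 80.4, 99.9, 47.5, 23.4 and 23.9 CPM, each highest at 16 h and lowest at 4 d. uHF.B and uHF.SB lay at 13.6 to 34.7 CPM, and IFE.B at 0.129 to 0.620 CPM. DP and fibroblasts were at 38.3 CPM at 4 d, where 1 of 118 cells held 12 of the 16 Cxcl12 UMIs, and 0 CPM at 6 d, where a count of 0 allows up to 26.8 CPM, and had too few cells for a value before that.

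Among the ligands of immune cells, Xcl1, which attracts dendritic cells with Xcr1, belonged to the T cells, which had Trdc and Tcrg-C1, genes of gamma delta T cells, among their leading genes. Their Xcl1 level was 178, 98.5, 702, 1614, 897 and 253 CPM, and T cells held 87.6% of its 5432 UMIs. The interval at 2 d, 1553 to 1676 CPM, lay above those of all 5 other times. At 2 d, 71 of 780 T cells held 10 or more Xcl1 UMIs and together 1772 of the 2654. Without such cells the level was 598 CPM at 2 d and 599 CPM at 4 d, so that the order of these times rests on them. Of T cells thinned to 2000 UMIs, 12.6% held Xcl1 at 0 h, 8.88% at 4 h, 51.7% at 2 d and 55.4% at 4 d, and without thinning 13.5%, 10.8%, 50.3% and 58.1%. Icos lymphocytes also carried Xcl1, at 108, 419, 774, 1095 and 219 CPM from 4 h to 6 d. At 4 d, 8 of these 126 cells held 268 of the 363 Xcl1 UMIs, at 2 d 4 cells held 74 of 105, and at 16 h 1 cell held 16 of 20. IFE.B cells, which should lack Xcl1, were at 0.0323 to 0.754 CPM, with a UMI in 0.0300 to 0.620% of cells. Xcr1, its receptor, gave 13 UMIs in all cells.

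Ccl5, a ligand that attracts T cells, was found in 23 Icos lymphocytes and read 462 CPM there at 4 d, against 29.5 to 69.2 CPM at the other times. At 4 d, 4 of the 126 Icos lymphocytes held 128 of the 153 Ccl5 UMIs, and without these 4 cells the level was 80.6 CPM. Of the 23 cells, 1 also held a Ccr6 UMI, whereas 85 of the 295 Icos lymphocytes held one. In the same 4 d library the Icos lymphocytes gave 154 CPM of Ccl1, 184 CPM of Ccl4 and 24.1 CPM of Ccl3, genes named after their values were seen. These came from few cells, since 2 cells held 42 of the 51 Ccl1 UMIs and 1 cell held 38 of the 61 Ccl4 UMIs. Ccl4 had 150 UMIs in 13 cells in the whole series, and Ccl3 38 UMIs in 21 cells.

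Ccl22, a ligand of Ccr4 made by mature dendritic cells, was at 0, 14.2, 105, 638, 2.52 and 19.4 CPM in Langerhans cells. Ccr7, the receptor that guides dendritic cells to lymph nodes, was at 10.1, 1.42, 94.5, 212, 7.55 and 5.83 CPM in the same cells. Both were highest at 2 d. At 16 h, 1 of 118 Langerhans cells held 53 of the 59 Ccl22 UMIs and 2 cells held 52 of the 53 Ccr7 UMIs. At 2 d, 16 of 257 Langerhans cells held a Ccr7 UMI, all 16 also held Ccl22, and they gave 647 of its 658 UMIs. The Ccl22 level was 8668 CPM in the 16 cells and 11.5 CPM in the other 241. Cxcl16 was at 898 against 112 CPM, and Ccl17, the neighbour of Ccl22 and a further Ccr4 ligand, at 147 against 0 CPM. Cxcl16 was found in 15 of the 16 cells and Ccl17 in 3. A single one of the 16 cells held all 22 Ccl5 UMIs of these Langerhans cells. Cxcl2 was closer, at 402 against 275 CPM. Genes outside the family were chosen after values were seen. Fscn1, an actin bundler of mature dendritic cells, was at 2251 against 5.22 CPM and Relb, an NF-kB subunit, at 228 against 69.0 CPM. Cd207, the langerin gene, was lower in the Ccr7 cells (1876 against 3430 CPM), as were the antigen presentation genes H2-Aa (6806 against 11151 CPM) and Cd74 (28563 against 39582 CPM). The median depths were 4685.5 and 3704 UMIs. Over all libraries, 26 Langerhans cells held Ccr7, 37 held Ccl22 and 19 held both.

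**Figure D4:**
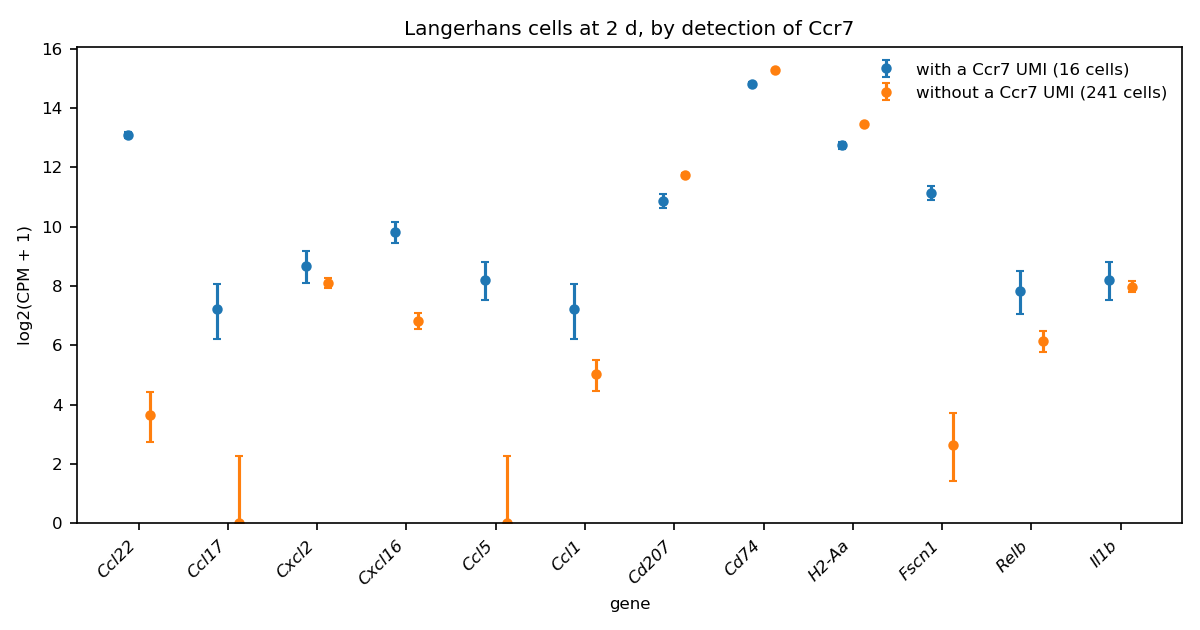
log2(CPM + 1) of the genes on the horizontal axis in the 16 Langerhans cells with a Ccr7 UMI and the 241 without at 2 d, with 95% Poisson intervals as bars. Ccl22, Ccl17, Fscn1 and Cxcl16 lie far higher in the cells with Ccr7, and Cd207, H2-Aa and Cd74 lie slightly lower.

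Cxcr6, a retention receptor of tissue-resident T cells, was carried by both lymphocyte groups. Icos lymphocytes were at 708, 901, 457, 588 and 1113 CPM from 4 h to 6 d, above all other types in 5 of 5 libraries. T cells were at 258, 164, 207, 257, 167 and 305 CPM, and 26.6 to 39.1% of thinned T cells held a UMI (26.7 to 42.5% without thinning), against 0 to 0% of thinned IFE.B cells. The highest T cell level was 1.86 times the lowest for Cxcr6 and 16.4 times for Xcl1. Of the 942 T cells with Xcl1, 325 held Cxcr6, which is 34.5% of them and 39.7% of the 818 T cells with Cxcr6.

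Cx3cr1, the receptor of membrane-bound Cx3cl1, was at 40.8, 155, 152, 67.5, 147 and 22.6 CPM in T cells, which held 67.2% of its 858 UMIs. Its gene model overlaps those of Csrnp1, Gorasp1 and Xirp1 on the same strand, so reads of the genes may be mixed and the values are uncertain. Ccr7 in Icos lymphocytes was at 8.33, 20.9, 133, 27.2 and 196 CPM from 4 h to 6 d, and in T cells at 10.8 to 45.2 CPM.

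Icos lymphocytes had the highest level of Ccr2, Ccr6 and Cxcr4 in every library with a value for them. Ccr2, the receptor of Ccl2 and Ccl7, was at 292, 83.8, 155, 202 and 329 CPM from 4 h to 6 d, and in T cells at 83.5, 32.8, 13.3, 7.90, 24.3 and 46.8 CPM. Ccr6, the receptor of Ccl20, was at 142, 105, 73.7, 269 and 133 CPM in Icos lymphocytes, which held 86.3% of its UMIs. Cxcr4, the receptor of Cxcl12, was at 142, 83.8, 111, 75.4 and 121 CPM there and at 47.9 and 35.7 CPM in DP and fibroblasts at 4 d and 6 d. At 16 h there were 20 Icos lymphocytes and 3 UMIs amount to 62.8 CPM, so the 16 h values of Ccr2, Ccr6 and Cxcr4 rest on few UMIs. Of the 295 Icos lymphocytes, 181 held Cxcr6, 101 Ccr2 and 85 Ccr6, and 72 of the Ccr6 cells also held Cxcr6. Ccr8, the receptor of Ccl1, had 37 of its 39 UMIs in Icos lymphocytes.

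**Figure D5:**
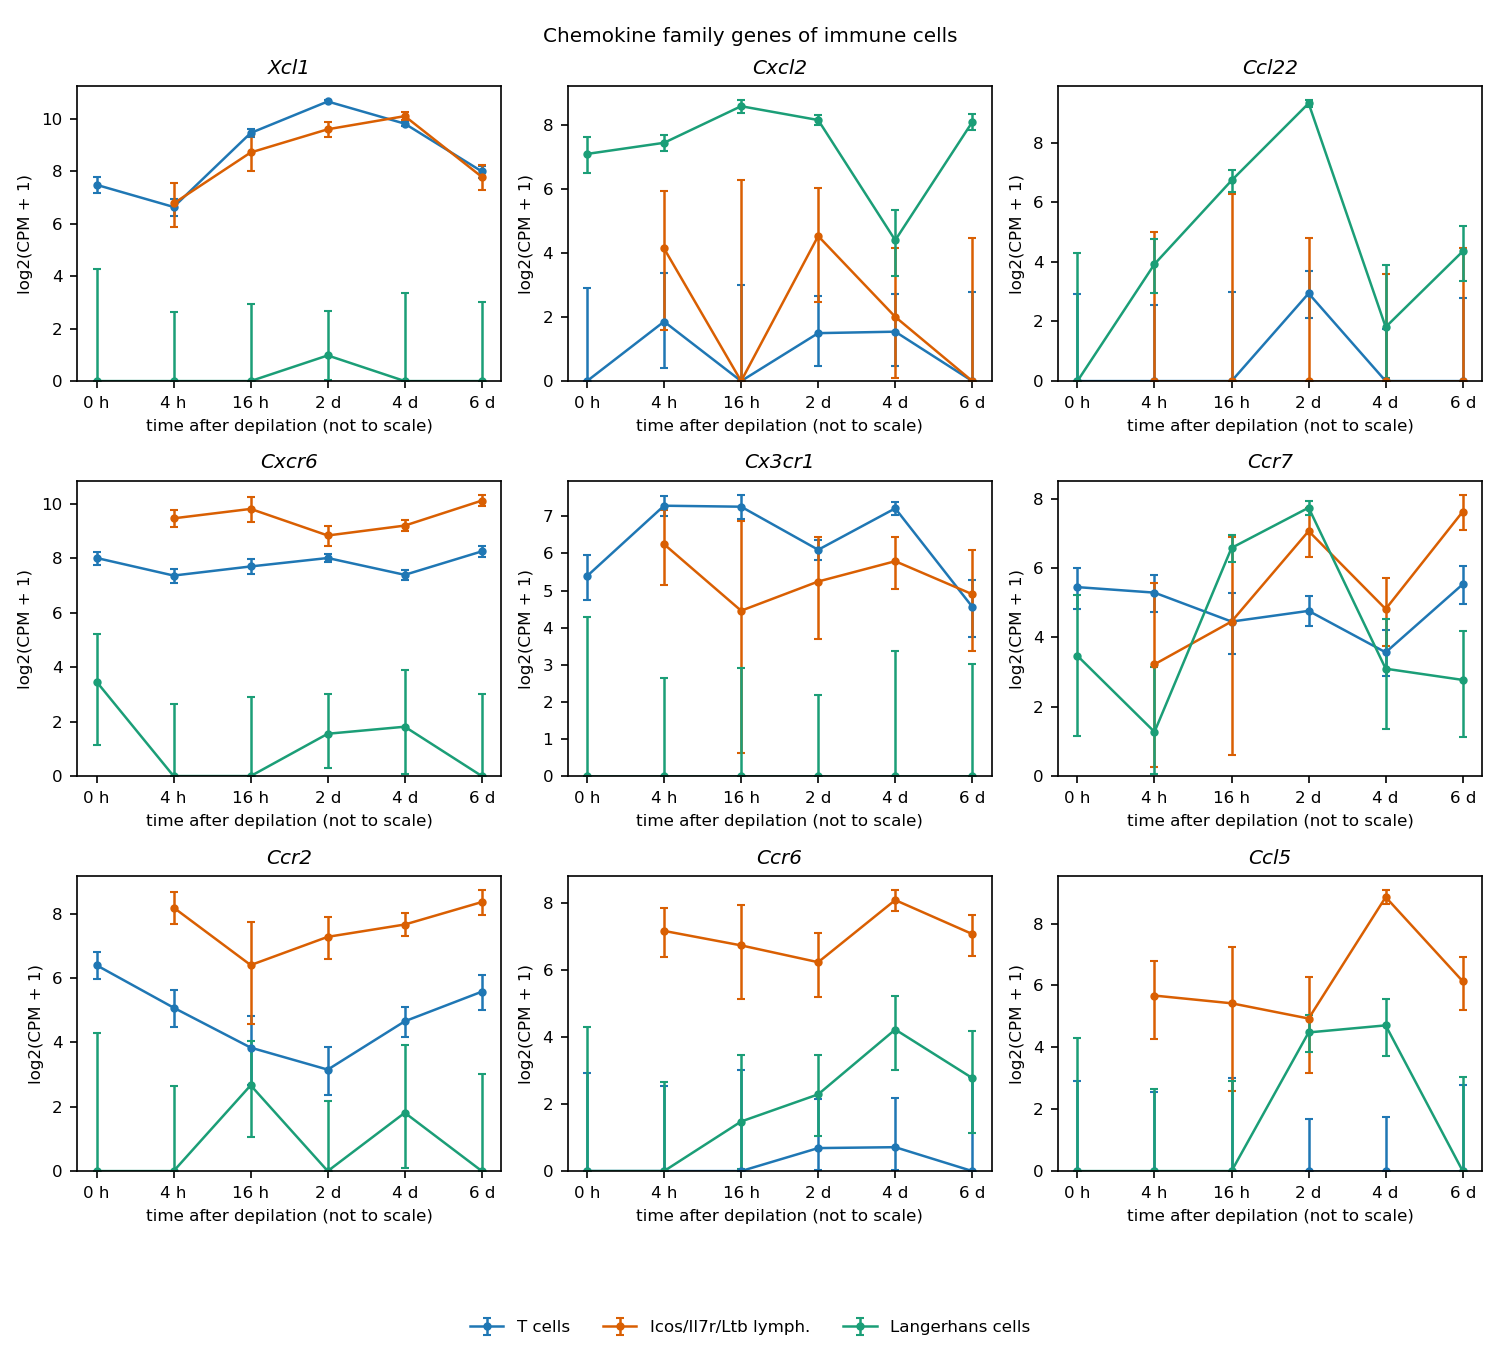
log2(CPM + 1) of 9 chemokine family genes at the 6 time points (not to scale) in T cells, Icos lymphocytes and Langerhans cells, with 95% Poisson intervals as bars and no point for sums under 20 cells. Xcl1 peaks at 2 d in T cells, Ccl22 and Ccr7 at 2 d in Langerhans cells, and Cxcr6 is carried by both lymphocyte groups at every point shown.

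The atypical receptors Ackr2, Ackr3 and Ackr4 were epithelial. Ackr3, which binds and clears Cxcl12, was highest in IFE.B in 6 of 6 libraries, at 107, 106, 64.6, 101, 105 and 64.9 CPM, and IFE.B held 78.6% of its 17062 UMIs. uHF.B was at 91.4 CPM at 0 h and at 13.1 to 31.4 CPM from 4 h on. T cells, which should lack it, were at 0 to 7.10 CPM. Ackr4, a scavenger of several Ccl chemokines, was at 66.5, 22.8, 55.2, 53.4, 73.4 and 50.9 CPM in uHF.B. IFE.B was at 65.7, 15.3, 63.8, 27.6, 48.3 and 41.6 CPM and OB at 78.6, 17.5, 33.0, 28.4, 7.82 and 26.8 CPM. The 4 h interval of Ackr4 lay below that of 0 h and below that of 16 h in 5 of the 6 epithelial types compared, IRS3 being the other one. The gene lies opposite Acad11. Ackr2, which clears inflammatory Ccl chemokines, gave 1296 UMIs, 61.8% of them in IFE.B.

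Cxcr2 and Cxcr1, the receptors of neutrophil attractants, fell outside the rule for naming and are described after their values were seen. In IFE.SB, Cxcr2 was at 0.121, 61.1, 4.96, 2.46, 0.546 and 1.91 CPM, from 3, 1135, 129, 53, 3 and 36 UMIs. The 4 h interval of 57.6 to 64.8 CPM lay above those of all 5 other times. IFE.B read 12.8 CPM at 4 h and 0.159 to 1.21 CPM at the other times. At 4 h, 9.18% of thinned IFE.SB cells held a UMI (33.5% without thinning), and of 344 T cells none did, which allows a share of up to 0.872%. Both IFE.SB clusters had it at 4 h, at 34.9 CPM in the cluster led by Mt4 and 99.9 CPM in the one led by Lce1 genes. Its UMIs were spread over cells, with 20 cells holding 10 or more and at most 16 in 1 cell. The neutrophil markers Retnlg, Mmp8, Ly6g and Stfa2l1 had 0 UMIs in IFE.SB and IFE.B in all 6 libraries, and Csf3r had 0 to 2, none of them at 4 h. Hcar2, on the same marker list, was at 108 to 207 CPM in IFE.SB. Cxcr1 had 76 UMIs in IFE.B at 4 h, which is 2.45 CPM.

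The other members with at least 20 UMIs did not meet the rule for naming. Cxcl9, a ligand of Cxcr3 induced by interferon, had 1053 UMIs in 198 cells and its highest level, 24.2 CPM, in uHF.B at 6 d, with 50% of its UMIs in 20 cells. Ccl6 had 95.6% of its 568 UMIs in IFE.SB, where the cluster led by Lce1 genes was at 27.3 CPM at 0 h and 0.462 CPM at 4 d. Ccl25 (1968 UMIs), Cx3cl1 (1597) and Ccr4 (803) were spread thinly at 1.05 to 1.11 UMIs per positive cell. Others were Ccl1 (763 UMIs), Ccr9 (528, of which 79.9% in IFE.SB), Ccl8 (131), Cxcr1 (126), Ccl28 (115), Ccl17 (108), Ccr10 (100), Ackr1 (83) and Ccl11 (51). Under 20 UMIs were Cxcl5, Cxcl13, Cxcl15, Cxcl17, Ccl9, Cxcr3, Cxcr5, Xcr1, Ccr1 and Ccr3.

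Many members are neighbours in the genome. In 8 groups with gaps of less than 500000 bases lay 33 of the 55 members, among them Ccl2, Ccl7, Ccl8, Ccl11, Ccl12 and Ccl1 on chromosome 11 (82035571 to 82305690, GRCm38). Neighbours did not always share a leading type, since Cxcl1 was led by SG and Cxcl2 by Langerhans cells.

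At 0 h the summed ligands were highest in OB (3933 CPM), IRS3 (1566) and IFE.B (1430.1), each led by Cxcl14, and the summed receptors in T cells (448 CPM, led by Cxcr6). The same 3 types made most ligand at 4 h, at 2176, 1322 and 1002 CPM, and Icos lymphocytes, now with enough cells for a value, carried the most receptor, 1541 CPM. At 16 h OB was still highest with 2195 CPM of ligands, followed by T cells with 732 CPM, most of it Xcl1, and IRS3 with 730 CPM. In T cells 7 of 228 cells held 50% of these UMIs. At 2 d T cells, at 1679 CPM, and Langerhans cells, at 1207 CPM, exceeded OB at 929 CPM. Of the 2 d ligand UMIs, 50% were held by 39 of 780 T cells, 9 of 257 Langerhans cells and 69 of 413 OB cells. Without cells of 10 or more UMIs of the gene, Xcl1 in T cells was at 598 CPM and Ccl22 in Langerhans cells at 24.7 CPM. The 2 d order therefore rests on few cells. At 4 d Icos lymphocytes had 1965 CPM of ligands, T cells 928 and OB 712. Of the ligand UMIs of that time, 50% were held by 5 of 126 Icos lymphocytes, 56 of 625 T cells and 487 of 2790 OB cells, so that the first place rests on few cells. Langerhans cells had 98.1 CPM. At 6 d OB was again the highest at 1815 CPM, ahead of IFE.B at 805 and Langerhans cells at 731 CPM. The carriers of receptors kept their order from 4 h on, with Icos lymphocytes first (1047 to 2099.9 CPM) and T cells second (362 to 424 CPM).

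Of 23 textbook ligand and receptor pairs, 8 had both partners at 50 CPM or more in some cell type of the same library, and only Cxcl16 with Cxcr6 did in all 6. Ccl2 with Ccr2 did in 4 libraries, Ccl20 with Ccr6 in 3, Cxcl12 with Cxcr4 and Cxcl12 with Ackr3 in 2 each, and Cxcl1 with Cxcr2, Cxcl2 with Cxcr2 and Ccl1 with Ccr8 in 1 each. The pair of Ccl1 and Ccr8 was met at 6 d, where 1 Langerhans cell held all 44 Ccl1 UMIs of that type. Since Icos lymphocytes had no 0 h value, Ccr6 and Ccr8 could not count there. The receptors Cxcr3, Cxcr5, Ccr3 and Xcr1 had 13, 6, 5 and 13 UMIs in all, and their pairs could not be assessed at this depth. Contact between the cell types was not measured.

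Change over time was tested across the 6 libraries within each of the 9 cell types with enough cells, by a spline of time in edgeR's quasi-likelihood test with Benjamini-Hochberg adjustment over all genes of the cell type. Of 103 combinations of member and cell type, 29 had an unadjusted p under 0.05 (set against all genes below), and 1 was called at an adjusted p of 0.05. It was Cxcl14 in melanocytes (adjusted p = 0.00372 by edgeR for the whole spline), where 4.43% of 4156 genes were called. Along the linear component of the spline Cxcl14 fell by 1.75 on the log2 scale over the 6 d. Its levels were 537, 80.7, 51.0, 25.1, 51.1 and 59.8 CPM, from 47, 13, 8, 7, 83 and 22 UMIs, so that the 0 h library stood alone. At 0 h, 1 of the 30 melanocytes held 25 of the 47 UMIs, and without this cell the level was 288 CPM. At 0 h the summed OB markers in melanocytes were at 2183 CPM, against 24.8 to 255 CPM later, the IFE.B markers at 8411 CPM against 955 to 2653 CPM, and the melanocyte markers at 3497 CPM against 4656 to 28310.0 CPM. The part of other cell types' RNA in the call was not tested. Without the 0 h library the trend was 0.11 on the log2 scale (adjusted p = 0.514 by edgeR), and with a linear trend alone it was -2.30 (adjusted p = 0.545 by edgeR).

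In the other 8 cell types no member was called by edgeR. IFE.B had 21 members tested and 1 with an unadjusted p under 0.05, IFE.SB 17 and 0, OB 13 and 7, uHF.B 17 and 4, and uHF.SB 17 and 4, and in each of these types 0% of all genes were called. T cells had 5 tested and 2 with an unadjusted p under 0.05 (0.0422% of all genes called), Langerhans cells 7 and 6 (0.0164%) and IRS3 5 and 4 (0.942%). Without the 2 d library, 4 members rather than 7 passed the count filter in Langerhans cells. Some of the 7 thus entered the test through the library where they were high, so their low p is no separate support. The shares called are at an adjusted p of 0.05. Over all genes an unadjusted p under 0.05 was found for 81 of 12920 in IFE.B, 351 of 12382 in IFE.SB and 1073 of 11367 in OB. It was found for 231 of 11598 in uHF.B, 502 of 11585 in uHF.SB and 198 of 7106 in T cells. Langerhans cells had 162 of 6110, IRS3 655 of 8603 and melanocytes 672 of 4156. The likelihood ratio test of DESeq2 called 12 of the 103, namely Cxcl14, Cxcl16, Cxcl1, Cxcl12 and Ccl7 in OB, Cxcl9 and Ccl1 in uHF.B, Ccl20 in uHF.SB, Xcl1 in T cells, Ccr7 in Langerhans cells, and Cxcl14 in IRS3 and melanocytes. Few cells held many of the UMIs of some. In uHF.B, 8 of 1296 cells held 171 Cxcl9 UMIs at 6 d and 5 of 1249 cells held 87 Ccl1 UMIs at 4 d. At 2 d, 12 of 257 Langerhans cells held 202 of the 219 Ccr7 UMIs. DESeq2 called 5.14% of all genes in OB, 0.259% in uHF.B, 1.28% in uHF.SB, 0.422% in T cells, 0.311% in Langerhans cells, 1.87% in IRS3 and 2% in melanocytes. In IFE.B and IFE.SB, where it called no member, the shares were 0.178% and 1.01%. For Xcl1 in T cells the adjusted p was 0.00585 by DESeq2 and 0.531 by edgeR. In OB the adjusted p by edgeR was 0.264 for Cxcl14, 0.164 for Cxcl1, 0.188 for Cxcl16 and 0.150 for Cxcl12. With 6 sums and 2 residual degrees of freedom, a course that misses the threshold is not shown to be flat.

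Other genes of the pathway were read from 3 lists. Of 20 genes of chemokine receptor signalling, 1 was called, Rgs10, a regulator of G protein signalling, in melanocytes, where 5 were tested. Along the linear component of the spline Rgs10 rose by 2.04 on the log2 scale (adjusted p = 0.0444 by edgeR for the whole spline). The median trend of these 5 was 0.34. Of 15 genes of NF-kB and inducing cytokines, 1 was called, Nfkbia, the NF-kB inhibitor, in melanocytes. Along the linear component Nfkbia fell by 2.28 on the log2 scale (adjusted p = 0.00648 by edgeR for the whole spline). The 4 tested in melanocytes had a median trend of -1.48. The higher OB and IFE.B marker sums of the 0 h melanocytes, given with Cxcl14, apply to both genes, and their part was not tested. The median over all genes tested in melanocytes was -0.02. Of 11 other chemoattractant genes, none was called by edgeR in any of the 9 cell types, with an unadjusted p under 0.05 for 2 in Langerhans cells and 1 in melanocytes.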

How the data were processed

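The data were the gene counts of 6 droplet libraries of mouse skin cells. The authors made these deposited counts, whole UMIs per gene and cell, with Cell Ranger 6.1.2 on mm10, and per the submitters' processing notes no other normalization is named. The annotation version is not given in the sources used here. Cells with 500 to 7000 genes and at most 10% mitochondrial counts were kept. Scrublet scores (scanpy 1.11.5) ranked cells, and the highest-scoring were removed at 0.8% per 1000 barcodes, 5203 in all, which left 49974 of 61031 barcodes. Libraries held 72634390 to 112370376 UMIs. Seurat 5.3.0 (2000 variable genes, 30 components, resolution 0.2) clustered the integrated cells without 694 genes, the chemokine family and cell-cycle genes among them. Types were named from marker lists. Counts were summed per type and library, and CPM intervals (95%, exact Poisson) cover counting error only. A time spline with 3 degrees of freedom was tested with edgeR 4.0.16 (TMM, filterByExpr, quasi-likelihood) in R 4.3.3, which was tested on simulated data, with DESeq2 1.42.0 as an alternative. The mice of a library were pooled, so p-values measure the spread of libraries about the curve. Members were named with values at 50 CPM or more in at least 2 libraries within the same cell type, or when called. The members and lists were chosen with earlier results of these data known. Other alternatives changed time scale, size factors, filter, resolution and doublet removal, or left out 1 library. Levels without the cells holding 10 or more UMIs of a gene were added after the values were seen, for immune cells, melanocytes and DP and fibroblasts alone. The values of 1 member are not reported here.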

Additional observations from a re-analysis of the deposited data

Results flagged for a closer look

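All 40 members with at least 20 UMIs were searched for intervals at 4 h and 0 h that were apart in opposite directions in follicular and interfollicular types. Cxcl16 was singled out because its 4 h level lay above that of 0 h in follicular cell types and below it in interfollicular ones. The log2 ratio of (CPM + 1) at 4 h over 0 h was 1.46 in OB, 1.32 in uHF.B, 1.31 in uHF.SB and 1.199 in IRS3 (companion layer), whereas it was -0.64 in IFE.B and -0.86 in IFE.SB. Each ratio compares 1 library with 1 other, so the difference between cell types was not tested. The other processing settings use the same libraries. Under those for which it was computed, the ratio stayed at 1.38 to 1.80 in OB, 1.28 to 1.47 in uHF.B and 1.28 to 1.59 in uHF.SB. It stayed at 1.15 to 1.23 in IRS3, -0.65 to -0.49 in IFE.B and -0.996 to -0.54 in IFE.SB. The finer clustering was not among these settings. There, Cxcl16 in the OB cluster led by Krt24 was at 72.8 CPM at 0 h and 204 CPM at 4 h. In the OB cluster led by Col14a1 it was at 30.2 CPM (14.5 to 55.5) and 44.2 CPM (25.8 to 70.8). These 2 intervals overlapped, and the level there was highest at 16 h (50.5 CPM).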

How the results depend on the processing

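The leading cell type was the less sensitive result. Of the 40 members with at least 20 UMIs, it was kept by 37 with means of per-cell shares, 32 with thinned cells, 38 at resolution 0.4, 36 with other doublet removal, 40 when non-immune cells with immune UMIs were left out, and 33 to 39 when 1 library was left out. The time course depended on the settings. Against 1 call, edgeR gave 8 with time on a log2 scale of hours, 8 with ranks of time, 0 with a linear trend alone, 14 without a filter on low counts and 4 at resolution 0.4, and DESeq2 gave 12. Leaving out 1 library gave 5 to 24 calls, with 24 without 0 h, 19 without 4 h, 6 without 16 h, 9 without 2 d, 5 without 4 d and 9 without 6 d. Over all genes of the cell types tested the shares called moved as well, from 0.313% to 2.97% with log2 hours, 2.01% with ranks, 0.135% with a linear trend, 0.716% without a filter, 0.4% at resolution 0.4, 1.4% by DESeq2, 5.55% without 0 h, 2.55% without 4 h, and 0.475% to 1.35% without each of the other libraries. The cause was not tested. The trend of Cxcl14 in melanocytes turned from -1.75 to 0.11 on the log2 scale without 0 h, was -2.30 at the lowest when 1 library (16 h) was left out, and lost its call with a linear trend alone. The median CPM of a named member moved outside the medians of its Poisson limits, which cover counting error only, in 52 of 161 recomputations. No paired analysis was possible because each time point had 1 library. Depth limited the 15 members under 20 UMIs, and the 0 h values of Icos lymphocytes and SG.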
